A study of Mus musculus with 9 samples.

Results

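Gene expression in ovaries at postnatal day 65 was compared with that in ovaries at postnatal day 8, across every gene that could be tested. Each age has 3 RNA-seq libraries, named replicates 1 to 3 in the labels, which makes 6 of the 9 libraries of the series. The other 3, from day 50, entered the fit only to estimate the spread. All of the mice were C57BL/6 with an oocyte-specific knock-in of a gene written PIK3CA* in the labels, so both ages carry the transgene and the comparison is between ages within 1 genotype. The meaning of the asterisk, and the promoter or Cre line that confines the knock-in to the oocyte, are not stated in the labels. The design text refers to the tissue as tumor samples. Ovaries without the transgene were not analysed here, so normal growth of the ovary and effects of the transgene cannot be told apart. Nothing in the labels ties each library to an animal of its own, and p-values measure the spread between libraries, which may be technical. Of 55487 gene rows per table, 17747 passed a filter on low counts and were tested.

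PIK3CA encodes a catalytic subunit of phosphoinositide 3-kinase (PI3K), which activates the kinase AKT, and AKT in turn holds FOXO transcription factors out of the nucleus. In the mouse oocyte this pathway is known for waking primordial follicles, the resting units of an oocyte and a few flat granulosa cells. An ovary in the second week of life holds mostly such small follicles with their oocytes, and an adult ovary also holds large follicles with many granulosa cells, hormone-making theca cells and, after ovulation, corpora lutea.

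Total expected counts ran from 14116924 to 18865431 in the 6 libraries. Counts on 1 annotated ribosomal RNA row took 3.82% to 7.91% of counts at day 8 and 0.451% to 1.04% at day 65. The noncoding gene AY036118 went the other way, with no count in any day 8 library and 2916, 2402 and 952 CPM at day 65. The part of these differences in the results was not tested. Day 8 replicate 1 stood apart from the other day 8 libraries. The mean effective length of its transcripts, weighted by TPM, was 1203 bases, against 1700 and 1564 in replicates 2 and 3. Ribosomal protein genes took 11.6% of its counts, against 4.50% and 5.96%. In both respects it lay near the day 65 libraries, which had mean lengths of 1071, 1175 and 1195 bases and ribosomal protein shares of 13.1%, 10.7% and 10.1%. The biological coefficient of variation (the spread between libraries beyond counting noise) was 27.4% at day 8 and 28.0% at day 65, and 12.6% at day 8 without replicate 1. Between 24858 and 25992 genes had at least 1 count at day 8 and between 21263 and 22907 at day 65 (exact permutation p = 0.1, the smallest that 3 against 3 libraries allow, two-sided). Results below are given with day 8 replicate 1 unless a value without it, or with it as the only day 8 library (then assumed to vary like the other ages), is named.

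Of the 17747 genes, 11059 (62.3%) differed between the ages at an adjusted p under 0.05, by edgeR's quasi-likelihood test with Benjamini-Hochberg adjustment over all genes tested. At day 65, 5267 genes (29.7%) were higher and 5792 (32.6%) lower, and a gene list is read below against these shares. The libraries of the ages did not overlap in 65.7% of all genes. The median log2 fold change of all genes (day 65 over day 8) was -0.05. With library size as the only scaling it was -0.34, and the split was then 3701 genes higher and 6946 lower. Past a 2-fold difference, 3216 genes were higher and 4147 lower.

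The fold change followed transcript length. The genes were ordered by effective length and cut into 10 bins of equal size. In the shortest bin (at most 736 bases) 40.2% were higher and 16.9% lower at day 65, and the median log2 fold change was 0.65. In the longest bin (4894 bases or more) 12.7% were higher and 60.2% lower, and the median was -0.80. With all libraries the medians fell from each bin to the next. The gap between the shortest and the longest bin was therefore 1.44, and it was 1.95 without day 8 replicate 1 and 0.77 with that library as the only one of day 8. Within single libraries the same gap, taken as the difference from each gene's mean over the 6 libraries, was -0.07, -1.20 and -0.83 at day 8 and 0.95, 0.64 and 0.46 at day 65. Those values did not overlap between the ages, with day 8 replicate 1 nearest to day 65. After the trend with length was removed from each library, 5508 genes were higher and 5428 lower, and 9548 of the 11059 calls (86.3%) were kept in the same direction, with 13 called in the opposite one. Shares of all genes to set beside list counts were then 31% higher and 30.6% lower. They were 32.2% higher and 32.6% lower without day 8 replicate 1, and 21.1% and 23.7% with it as the only day 8 library. The share of each difference that belongs to the tissue rather than to the length make-up of the libraries was not tested.

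**Figure D1:**
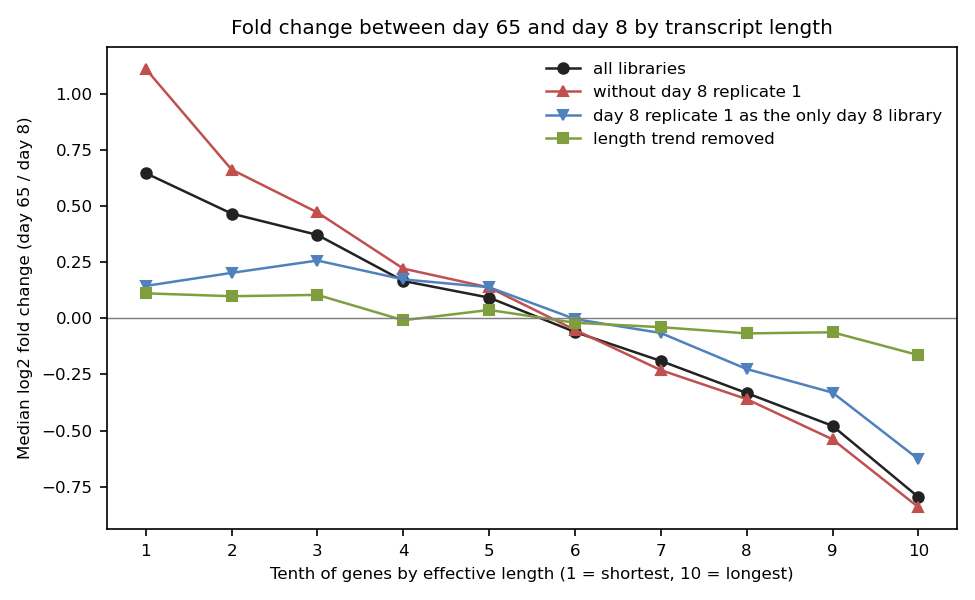
Median log2 fold change (day 65 over day 8, y axis) in 10 equal bins of the 17747 genes ordered by effective length (x axis, 1 is the shortest), with all libraries, without day 8 replicate 1, with day 8 replicate 1 as the only day 8 library, and after the length trend was removed. With all libraries the medians fall from 0.65 to -0.80, and with the trend removed they lie between 0.11 and -0.16.

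The lists of oocyte genes had the largest median changes of the 37 gene lists. All 10 tested genes for zona proteins and oocyte-secreted factors were lower at day 65, with a median log2 fold change of -6.57, as were 27 of 28 oocyte regulators and maternal-effect genes (median -6.21) and 19 of 21 genes of meiosis and of the piRNA pathway (median -6.16). Members with no day 65 count enter these medians at fitted values. With bounds against 3 counts over the group in their place, the medians were -6.08, -6.21 and -6.07. Without day 65 replicate 3 the fitted medians were -10.5, -8.31 and -7.33. DESeq2 called 7 of the 10 zona and secreted genes lower and gave no adjusted p for the remaining 3. With the length trend removed, 10, 26 and 18 of them were lower, and with day 8 replicate 1 as the only day 8 library 9, 26 and 18. Without that library 9 of the 10 zona and secreted genes were lower, the exception being Bmp15, an oocyte growth factor (adjusted p = 0.0513). Summed over the zona and secreted genes, the level was 2031 to 2403 CPM (counts scaled to a common library size by TMM) at day 8 and 37.1 to 85.6 CPM at day 65. In whole ovary, fewer oocytes per unit of tissue and less RNA per oocyte cannot be told apart.

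The zona pellucida is the glycoprotein coat of the oocyte. Zp2, which encodes a zona protein that binds sperm, stood at 783, 1075 and 1035 CPM in the day 8 libraries and at 0.249, 0.327 and 9.49 CPM in those of day 65. The groups did not overlap, and day 65 replicate 3 kept far more Zp2 RNA than the other day 65 libraries. The log2 fold change was -8.10 ± 1.06 (SE, adjusted p = 0.000115). Zp1 and Zp3, for other proteins of the coat, had log2 fold changes of -7.59 ± 0.75 and -7.30 ± 0.96, and the same library was the highest of day 65. Padi6, a peptidylarginine deiminase family member needed for the cytoplasmic lattices of the egg, had the largest loss in CPM of all named genes. It fell from 1658, 2475 and 2512 CPM to 0.663, 1.64 and 14.95 CPM, a log2 fold change of -8.55 ± 1.02 (adjusted p = 6.71e-05). Without day 65 replicate 3 the log2 fold changes were -11.6 for Zp2, -10.9 for Zp1, -10.6 for Zp3 and -10.9 for Padi6.

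The promoter of Zp3 is shown because zona genes are classic targets of the oocyte factor FIGLA, which binds E-boxes (CANNTG). The sequence is from RefSeq (GRCm38.p6), chr5:135979855-135980104, plus strand, the 250 bases before the start site, and capitals mark E-boxes on either strand.
Zp3: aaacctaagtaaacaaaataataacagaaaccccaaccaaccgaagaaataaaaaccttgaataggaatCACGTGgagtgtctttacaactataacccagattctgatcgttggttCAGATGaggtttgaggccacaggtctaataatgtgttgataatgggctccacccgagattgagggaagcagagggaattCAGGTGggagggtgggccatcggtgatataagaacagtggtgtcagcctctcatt
It holds 3 E-boxes, at positions -181, -134 and -55 from the start site. Windows of 300 bases (250 before and 50 after the start) were found for 5 of the 10 zona and secreted genes, of which 4 held an E-box, and for 20 of the 28 oocyte regulators, of which 18 did. Of all 27025 RefSeq promoters, 72.1% held one, so the motif is common everywhere.

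Transcription factors of the young oocyte were nearly absent at day 65. Figla stood at 71.6, 50.3 and 62.3 CPM at day 8 and at 0.249, 0 and 0.23 CPM at day 65. Lhx8, a homeobox factor of early follicles, stood at 42.6, 62.0 and 68.0 CPM and then at 0, 0 and 0.518 CPM. In both the ages did not overlap (log2 fold changes -8.55 ± 0.49 for Figla and -8.13 ± 0.58 for Lhx8, adjusted p = 1.43e-06 and 4.19e-06). Without day 65 replicate 2 the values were -7.96 for Figla and -7.54 for Lhx8. Without replicate 3 no day 65 count of Lhx8 was left, so its fitted value of -12.9 is not a measured fold. Tbpl2, the oocyte form of the TATA-binding protein, had 35.5, 15.1 and 21.5 CPM at day 8 and no count at day 65, and was at least 345-fold lower (against 3 counts over the group). Nobox, another homeobox factor, retained 0.332, 0.982 and 3.51 CPM, from 114, 164 and 175 CPM (log2 fold change -6.46 ± 0.56, and -7.76 without day 65 replicate 3).

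The largest falls of all named genes included members of the meiosis and piRNA list. Mov10l1, an RNA helicase that starts piRNA production, went from 45.7, 75.8 and 80.0 CPM to no count in any day 65 library, which makes it at least 1030-fold lower. Mael, another piRNA pathway gene, went from 102, 76.8 and 96.7 CPM to 0, 0 and 0.173 CPM, a ratio of 1360 (95% interval 464 to 6580, exact binomial, counting error only). Sycp1, a structural protein of the synaptonemal complex that pairs chromosomes in meiosis, was at least 483-fold lower, with no count at day 65. Ddx4, the germ cell helicase also known as vasa, kept 0.912, 0.589 and 0.690 CPM of 76.8, 78.2 and 97.5 CPM (log2 fold change -6.86 ± 0.23). Ranked by fitted log2 fold change, the 10 largest falls were those of Mov10l1, Mael, Sycp1, Tbpl2, Trim71, Oog1, Ap3b2, Sohlh1, Tdrd9 and Sycp3. Where day 65 had no count the fitted value is not a measured fold, so the place of such genes in this ranking is not measured. The transcription factor gene Sohlh1 went from 70.7, 86.8 and 102 CPM to 0.0829, 0 and 0.288 CPM (-9.26 ± 0.41). Without day 65 replicate 3 its fitted value of -10.9 rested on 0.0829 and 0 CPM, and is not a firm fold. Across all genes, 152 had at least 1 CPM in each day 8 library and no count at day 65, and 23 had the reverse.

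Some genes of the same lists stayed measurable. Gdf9, which encodes a growth factor that oocytes send to granulosa cells, fell less than the zona genes, from 413, 313 and 336 CPM to 43.0, 35.5 and 49.7 CPM (log2 fold change -3.05 ± 0.20, adjusted p = 2.37e-06). Its 3 day 65 libraries lay close together, unlike those of Zp2. Tle6, of the subcortical maternal complex, kept 129, 83.0 and 107 CPM (log2 fold change -1.88 ± 0.20). Dazl, an RNA-binding protein of germ cells, kept 14.1, 18.98 and 12.5 CPM (-1.46 ± 0.23). Tex15, which acts in meiosis and piRNA-guided silencing, kept 52.3, 40.2 and 47.0 CPM (-1.66 ± 0.18). Uchl1, a ubiquitin hydrolase also made by neurons, was not called (log2 fold change -0.22 ± 0.27, adjusted p = 0.5), although it was lower at -0.65 (adjusted p = 0.0272) with the length trend removed and at -0.64 without day 65 replicate 1. Msh5 and Rec8, meiotic genes, were not called either (-0.23 ± 0.35 and 0.78 ± 0.33). Rec8 was called higher without day 8 replicate 2, at 1.05, and without day 65 replicate 2, at 1.04. Kit, the receptor through which oocytes sense granulosa-made Kit ligand, stood at 182, 303 and 276 CPM at day 8 and at 3.15, 7.72 and 13.9 CPM at day 65 (log2 fold change -4.92 ± 0.49, and -5.52 without day 65 replicate 3).

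**Figure D2:**
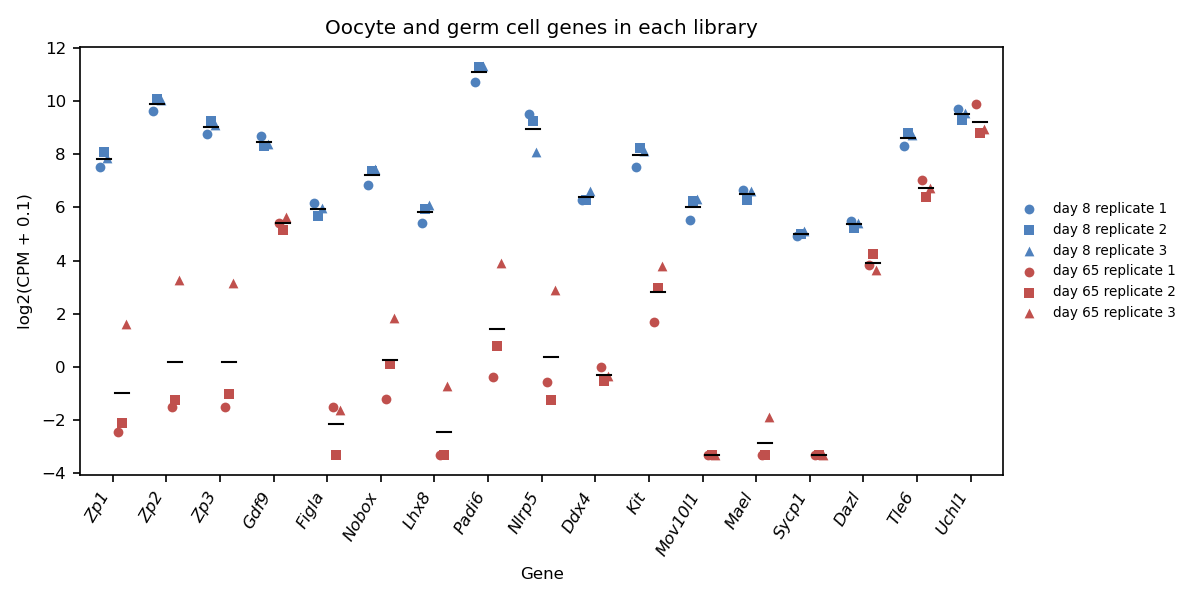
Normalised level of oocyte and germ cell genes, as log2(CPM + 0.1) on the y axis, in each of the 3 day 8 libraries (blue) and the 3 day 65 libraries (red). Marker shape gives the replicate and the bar the mean of the log values. The ages do not overlap except for Uchl1, and day 65 replicate 3 is the highest day 65 library for Zp1, Zp2, Zp3, Padi6 and Nlrp5.

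More granulosa cell genes were higher than lower. Of 26 tested, 17 were higher and 6 lower at day 65 (median log2 fold change 1.84, and 2.45 without day 8 replicate 1), with the same counts after the length trend was removed and with day 8 replicate 1 as the only day 8 library. Summed levels were 5810 to 6719 CPM at day 8 and 16210 to 19380 CPM at day 65. Foxl2, the transcription factor that holds granulosa identity, was present in every library, at 122, 194 and 146 CPM at day 8 and 529, 396 and 474 CPM at day 65 (log2 fold change 1.60 ± 0.19, adjusted p = 5.93e-05).

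Inhibin and activin subunits, hormones of growing follicles that act on pituitary FSH, rose. Inhbb stood at 234, 112 and 117 CPM at day 8 and at 3115, 2947 and 2475 CPM at day 65, which is 18.4-fold (log2 fold change 4.20 ± 0.33, adjusted p = 4.94e-06). Inhba went from 144, 63.1 and 11.9 CPM to 1157, 1190 and 1056 CPM (3.96 ± 0.69, and 4.92 without day 8 replicate 1). In both genes the day 65 libraries lay within a narrow range while those of day 8 were spread, with replicate 1 the highest. Inha rose 3.65-fold and Fst, which encodes the activin-binding protein follistatin, 4.49-fold. Hsd17b1, the enzyme that completes estradiol, rose 14.6-fold, from 78.2, 35.6 and 36.3 CPM to 808, 739 and 644 CPM (log2 fold change 3.87 ± 0.32). Grem1, an antagonist of bone morphogenetic proteins, went from 1.63, 1.40 and 0.281 CPM to 103, 146 and 126 CPM (6.86 ± 0.44). Gja1, the main connexin between granulosa cells, rose 8.59-fold (3.10 ± 0.29), to 3878, 3447 and 2950 CPM.

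Among the 6 lower members were Amh, Kitl, Gatm and Igfbp5. Amh, which encodes anti-Müllerian hormone, went from 111, 47.3 and 65.0 CPM to 6.88, 7.53 and 26.7 CPM (log2 fold change -2.42 ± 0.50, adjusted p = 0.00193, and -3.35 without day 65 replicate 3). Kitl, the granulosa ligand for Kit, fell from 171, 145 and 153 CPM to 14.0, 25.7 and 21.5 CPM (-2.93 ± 0.22). Gatm, the first enzyme of creatine synthesis, fell 33.4-fold, from 220, 343 and 328 CPM to 6.96, 6.54 and 12.99 CPM. Igfbp5, which encodes a binding protein for insulin-like growth factors, had one of the largest losses in CPM, from 1677, 3357 and 2529 CPM to 232, 256 and 669 CPM (-2.71 ± 0.43, and -3.36 without day 65 replicate 3). None of these 4 genes overlapped between the ages.

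The receptors for pituitary hormones gave no firm difference. Fshr, the FSH receptor, had 8.08, 0.931 and 1.52 CPM at day 8 and 0.166, 1.11 and 0.690 CPM at day 65. The groups overlapped, and the call (log2 fold change -2.32 ± 0.81, adjusted p = 0.0299) rested on day 8 replicate 1, without which the log2 fold change was -0.84 (adjusted p = 0.163). The call was also lost without day 65 replicate 1 (adjusted p = 0.0933) or replicate 3 (0.0694). Lhcgr, the LH receptor, was not called (1.02 ± 0.70, adjusted p = 0.228), with 10.7, 1.16 and 1.97 CPM at day 8 and 4.73, 9.03 and 13.2 CPM at day 65. Cyp19a1, the aromatase, was not called (1.36 ± 0.55, adjusted p = 0.0519). Without day 8 replicate 1 both were higher at day 65, with log2 fold changes of 2.52 for Lhcgr (adjusted p = 0.00206) and 2.52 for Cyp19a1 (9.93e-05). Cyp19a1 was also called higher, at 1.61, without day 65 replicate 3. DESeq2 (1.33), RLE scaling (1.34), a replicate block (1.53) and removal of length and GC trends (1.59) called it higher too. Limma voom with sample quality weights called both higher, at 2.40 for Lhcgr and 2.08 for Cyp19a1. Cyp19a1 stayed uncalled in 13 of 22 alternative settings, and Lhcgr in 19. In each of these 3 genes day 8 replicate 1 had the highest level of its age.

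Steroid-making genes rose in part. Of 16 tested theca and steroidogenesis genes, 9 were higher and 2 lower (median log2 fold change 0.96). With day 8 replicate 1 as the only day 8 library 6 were higher and 1 lower (median 0.47), and without it 11 were higher and 3 lower (median 1.71). The count of lower genes was 1 without day 8 replicate 3 or day 65 replicate 1 or 2. Cyp11a1, the side-chain cleavage enzyme that makes pregnenolone, stood at 37.7, 10.7 and 4.28 CPM at day 8 and at 72.3, 105 and 145 CPM at day 65 (2.63 ± 0.64, and 3.85 without day 8 replicate 1). Scarb1, the receptor that takes up HDL cholesterol, rose 6.20-fold to 787, 609 and 575 CPM (2.63 ± 0.17), and its day 8 libraries lay together at 105, 111 and 102 CPM. Fdxr, which carries electrons to the mitochondrial P450 enzymes, rose 6.63-fold. Star, the protein that brings cholesterol into mitochondria, was slightly lower, from 32.8, 30.6 and 30.3 CPM to 21.1, 18.1 and 27.0 CPM (-0.50 ± 0.16, adjusted p = 0.0168). That call was lost with the length trend removed (adjusted p = 0.0688), and without day 8 replicate 3 (0.0631) or day 65 replicates 1 (0.0509) or 2 (0.0591). Cyp17a1, the androgen-making enzyme of theca cells, was not called (0.58 ± 0.73, adjusted p = 0.507), and was called higher at 1.98 without day 8 replicate 1.

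Markers of the corpus luteum did not move together, with 4 of 13 tested higher and 6 lower. The 6 lower calls became 3 with the length trend removed or without day 65 replicate 3, and 1 without day 8 replicate 3 or day 65 replicate 1. Ptgfr, the prostaglandin receptor of luteal cells, had 3.63, 2.10 and 3.09 CPM at day 8 and 0.249, 1.83 and 0.23 CPM at day 65, and Akr1c18, which degrades progesterone, was not called (0.57 ± 0.51). The Ptgfr call (-1.91 ± 0.69) was lost with the length trend removed, with an adjusted p of 0.101, and without day 8 replicate 1 (0.0635) or 3 (0.0780) or day 65 replicate 1 (0.0897) or 3 (0.0903). It was -3.57 without day 65 replicate 2. Genes typical of Sertoli cells, the testis counterpart of granulosa cells, split evenly, with 5 of 14 higher and 5 lower. Trf, for transferrin, and Clu, for the secreted chaperone clusterin, rose 10.3-fold and 4.25-fold. For Trf, 63.5% of exon bases are shared with another annotated gene, and whether counting used strand is not stated in the labels, so its counts are uncertain. Sox9, the transcription factor that sets Sertoli fate, was not called (-0.14 ± 0.31).

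The ovarian surface epithelium is the sheet of cells around the ovary. Of its 13 tested markers 11 were lower at day 65 and none higher (median log2 fold change -2.26), and the summed level went from between 1409 and 2437 CPM to between 374 and 764 CPM. Without day 65 replicate 3, 12 were lower (median -2.86). With the length trend removed 11 were lower, and with day 8 replicate 1 as the only day 8 library 6. Muc16, the mucin known as CA-125, fell 28.1-fold, from 99.0, 201 and 135 CPM to 1.66, 4.32 and 9.08 CPM (-4.81 ± 0.50, adjusted p = 2.89e-05). Lgr5, a receptor for R-spondins on progenitor cells of the surface, went from 52.4, 135 and 108 CPM to 0.746, 1.96 and 5.98 CPM (-5.03 ± 0.58). Krt19, a keratin, went from 277, 389 and 397 CPM to 6.55, 28.5 and 76.2 CPM (-3.25 ± 0.66, adjusted p = 0.00179). Each of these genes was lowest in day 65 replicate 1 and highest, among the day 65 libraries, in replicate 3. Without replicate 3 the log2 fold changes were -5.56 for Muc16, -6.13 for Lgr5 and -4.32 for Krt19. Krt8, a keratin shared with other epithelia, was not called (-0.19 ± 0.29). Cldn3, a tight junction protein, was not called with all libraries (0.05 ± 0.62, adjusted p = 0.95) and was lower, at -1.22, without day 65 replicate 3. A change in the share of surface relative to a larger ovary and less RNA per surface cell cannot be told apart.

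WNT pathway genes were mostly lower where they differed. Of 19 tested, 9 were lower and 2 higher (median log2 fold change -0.69, and -0.32 with the length trend removed, with 8 lower and 3 higher). Axin2, a feedback inhibitor switched on by beta-catenin, fell 23.9-fold, from 72.2, 118 and 97.3 CPM to 2.32, 4.25 and 5.23 CPM (-4.58 ± 0.28, adjusted p = 1.92e-06). Rspo1, the secreted amplifier of WNT signals needed for ovary fate, fell 13.1-fold from 66.3, 113 and 101 CPM to 2.82, 7.07 and 11.1 CPM. The WNT ligands Wnt6 and Wnt4 fell 26.7-fold and 3.19-fold. Ctnnb1, which encodes beta-catenin itself, was not called (-0.21 ± 0.16), and was lower at -0.34 without day 8 replicate 1. The other direction was taken by Dkk3 and Wnt10b, with log2 fold changes of 0.78 ± 0.17 and 2.40 ± 0.52. Wt1, a transcription factor of surface, stroma and early granulosa cells, fell 13-fold, from 295, 489 and 431 CPM to 6.72, 29.7 and 56.4 CPM (-3.70 ± 0.59, and -4.46 without day 65 replicate 3).

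**Figure D3:**
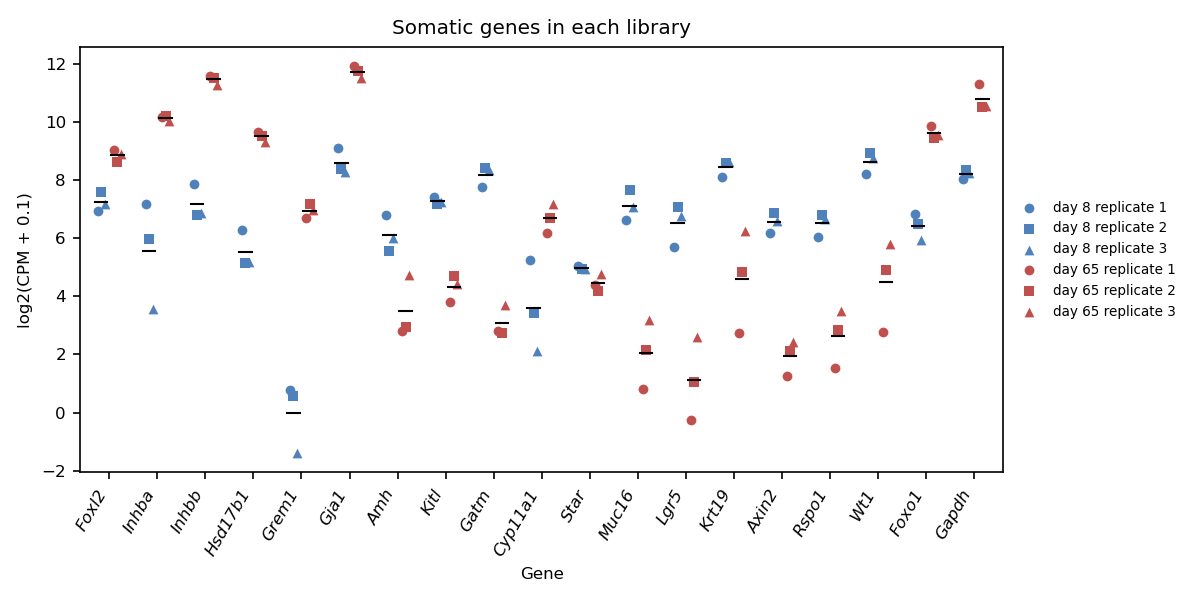
Normalised level of genes of granulosa, steroid-making and surface cells and of WNT signalling, Foxo1 and Gapdh, as log2(CPM + 0.1) on the y axis, in each day 8 library (blue) and day 65 library (red). Marker shape gives the replicate and the bar the mean of the log values. No gene shown overlaps between the ages, and day 65 replicate 1 is the lowest library for Muc16, Lgr5, Krt19 and Wt1.

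Other cell types moved less uniformly. Smooth muscle and pericyte genes were higher in 8 of 12 and lower in none (median log2 fold change 1.07), and in 3 of 12 when day 8 replicate 1 was the only day 8 library. The count of higher genes was 4 without day 8 replicate 2 or 3 and 5 without day 65 replicate 2 or 3, and library size as the only scaling gave 4 higher and 1 lower. Acta2, smooth muscle actin, went from 382, 203 and 261 CPM to 761, 959 and 1571 CPM (1.96 ± 0.31). Stromal fibroblast genes split, with 6 of 17 higher and 6 lower. Endothelial genes were higher in 6 of 14 and lower in 3. Plvap, the diaphragm protein of fenestrated vessels, rose 9.72-fold, and Pecam1, a general endothelial adhesion molecule, 2.44-fold, while Kdr, the main VEGF receptor, fell 3.71-fold and Tek, the angiopoietin receptor, 2.66-fold. Matrix and remodelling genes were higher in 11 of 25 and lower in 4, or 7 lower without day 8 replicate 1. Among them Spp1, for osteopontin, rose 20.7-fold from 1.63, 1.57 and 5.40 CPM to 89.2, 54.1 and 38.4 CPM, and its log2 fold change was 4.37 ± 0.49 with all libraries and 5.28 without day 8 replicate 3.

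Macrophage and antigen presentation genes were higher in 8 of 17 and lower in 1 (median log2 fold change 0.48). Without day 65 replicate 1 there were 8 higher and 2 lower (median 0.01), and without day 8 replicate 3 none was lower. The complement gene C1qa went from 11.4, 7.33 and 7.26 CPM to 77.8, 25.8 and 56.0 CPM (2.63 ± 0.37, adjusted p = 0.000183), and the class II gene H2-Aa rose 4.10-fold. The pan-leukocyte gene Ptprc was not called (-0.11 ± 0.33), at 1.57 to 3.15 CPM at day 8 and 1.99 to 2.30 CPM at day 65. Csf1r, the receptor that macrophages need, was not called (0.48 ± 0.44), and was higher, at 0.92, without day 65 replicate 2. Summed, the macrophage list stood at 105 to 174 CPM at day 8 and at 181 to 442 CPM at day 65. Lymphocyte genes were nearly absent at both ages, with summed levels of 3.90 to 7.82 CPM and 4.48 to 6.44 CPM and 4 of the list's genes testable. Of those 4, 1 was higher and 2 lower, with 1 lower without day 8 replicate 1 or day 65 replicate 3 and 2 higher without day 8 replicate 3.

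Some immune-type genes had wide gains, and no list of them was tested. Retnla, a secreted resistin-like protein, went from 0.223, 0.0582 and 0 CPM to 256, 56.7 and 153 CPM (log2 fold change 10.7 ± 1.28, adjusted p = 6.73e-05, and 12.1 without day 8 replicate 1). Chil3, a chitinase-like lectin, and Arg1, the arginase, which were picked out after their values were seen, stood at 132, 24.7 and 51.8 CPM and at 129, 47.7 and 34.0 CPM at day 65, from at most 1.41 and 1.69 CPM at day 8. Their log2 fold changes were 6.86 ± 1.12 and 5.69 ± 0.54, and without day 65 replicate 1, the highest library for both, they were 6.03 and 4.92. For Chil3 the value was 9.02 without day 8 replicate 3. Rnase2a, an eosinophil-type ribonuclease, had no count at day 8 and 40.1, 15.1 and 15.4 CPM at day 65, and was at least 355-fold higher. The part of immune cells in these gains was not tested.

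The other genes with the largest rises among those of at least 10 CPM were of several kinds. Ctrb1, chymotrypsinogen of the exocrine pancreas, went from 0.297, 0.349 and 0.281 CPM to 293, 105 and 169 CPM (9.22 ± 0.67, adjusted p = 4.56e-06). Cela1, a pancreatic-type elastase picked out after its values were seen, rose 44.2-fold, while the pancreatic carboxypeptidase Cpa1, picked out likewise, fell 14.2-fold (log2 fold change -3.83 ± 0.55, and -4.48 without day 65 replicate 3). Slc6a11, a transporter for the transmitter GABA, went from 0.148, 0.175 and 0 CPM to 31.5, 26.6 and 23.2 CPM (7.93 ± 0.53, and 8.58 without day 8 replicate 2). Pcsk2, a protease that matures peptide hormones, went from 0.0742, 0.698 and 0.563 CPM to 133, 67.4 and 58.3 CPM (7.50 ± 0.57). Bdkrb2, the bradykinin receptor, rose to 96.1, 38.9 and 31.5 CPM (7.53 ± 0.64, and 6.89 without day 65 replicate 1). The remaining genes with the largest rises were Shisal2a, Usp50, Nat8f3 and Sez6, with log2 fold changes of 8.51, 7.87, 7.43 and 7.28, and Nat8f3 stood at 10.03 without day 8 replicate 1. Neuroendocrine secretory genes as a list did not move 1 way, with 4 of 11 higher and 3 lower. Adipocyte genes were higher in 3 of 8 and lower in 1 (2 without day 65 replicate 1). Erythroid genes were higher in 2 of 6, in 4 without day 8 replicate 3 or day 65 replicate 1, and in 1 without any other single library of the 2 ages, with 1 lower where that was day 8 replicate 1 or 2. Genes of liver were higher in 3 of 4, and that list holds Trf, whose counts are uncertain as stated above. Neural genes were lower in 4 of 7 and higher in 2, and genes of the oviduct and of cilia higher in 2 of 10 and lower in 2. Without day 8 replicate 3 or day 65 replicate 2 the neural genes had 1 higher and 3 lower. The oviduct genes had 1 higher without either of those libraries or day 8 replicate 2, and 3 lower without day 65 replicate 3.

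Cell division genes of the G2 and M phases, when the cell prepares for and carries out mitosis, were higher in 13 of 24 and lower in 3 (median log2 fold change 0.40), and in 16 and 4 with the length trend removed. Cdc20, an activator of the complex that ends mitosis, stood at 48.1, 52.6 and 53.2 CPM at day 8 and at 111, 96.9 and 103 CPM at day 65 (1.02 ± 0.12, adjusted p = 5.43e-05). The mitotic cyclin Ccnb2 rose 1.98-fold from 54.1, 46.5 and 52.4 CPM to 107, 101 and 96.2 CPM, and the kinase Plk1 2.70-fold. Top2a, the topoisomerase of dividing cells, rose 1.71-fold, with 142, 160 and 143 CPM at day 8 and 255, 251 and 256 CPM at day 65. Both groups were tight in these genes, day 8 replicate 1 included, and did not overlap. Against them Cenpf and Ttk, which act at the kinetochore and its checkpoint, fell 2.19-fold and 1.69-fold. The Ttk call was lost with length and GC trends removed (log2 fold change -0.32, adjusted p = 0.0929). Ccnb1, a B-type cyclin like Ccnb2, was not called (-0.11 ± 0.16).

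Promoters of such genes often hold a CHR element (TTTGAA), through which they are kept silent outside G2 and M. Those of 4 members that rose and of Bub1, a checkpoint kinase that was lower with all libraries (log2 fold change -0.60), are shown as the 250 bases before the start site, from RefSeq (GRCm38.p6), with the CHR letters on either strand in capitals. The Bub1 call was lost with length and GC trends removed (-0.10, adjusted p = 0.434). It was also lost with the length trend removed and day 8 replicate 1 left out (0.113), and with the length trend removed in a fit with a replicate block (0.0585). The promoters lie at chr9:70421555-70421804 on the minus strand for Ccnb2, chr4:118437344-118437593 on the minus strand for Cdc20, chr11:99024190-99024439 on the minus strand for Top2a, chr2:164769679-164769928 on the plus strand for Ube2c and chr2:127831860-127832109 on the minus strand for Bub1.
Ccnb2: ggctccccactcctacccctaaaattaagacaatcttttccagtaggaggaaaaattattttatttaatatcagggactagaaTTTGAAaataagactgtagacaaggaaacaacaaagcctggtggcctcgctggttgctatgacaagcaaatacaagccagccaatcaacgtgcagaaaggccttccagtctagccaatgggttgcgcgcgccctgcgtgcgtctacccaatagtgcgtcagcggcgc
Cdc20: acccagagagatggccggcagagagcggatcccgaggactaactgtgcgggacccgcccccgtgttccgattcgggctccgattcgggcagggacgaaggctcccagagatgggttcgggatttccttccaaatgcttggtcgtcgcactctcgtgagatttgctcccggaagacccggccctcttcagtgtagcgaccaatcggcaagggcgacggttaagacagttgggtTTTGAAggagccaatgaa
Top2a: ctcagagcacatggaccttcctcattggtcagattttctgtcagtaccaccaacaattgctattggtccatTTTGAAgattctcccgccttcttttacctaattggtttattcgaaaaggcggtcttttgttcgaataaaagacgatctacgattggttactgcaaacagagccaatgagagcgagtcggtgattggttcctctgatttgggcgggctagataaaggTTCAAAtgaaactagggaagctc
Ube2c: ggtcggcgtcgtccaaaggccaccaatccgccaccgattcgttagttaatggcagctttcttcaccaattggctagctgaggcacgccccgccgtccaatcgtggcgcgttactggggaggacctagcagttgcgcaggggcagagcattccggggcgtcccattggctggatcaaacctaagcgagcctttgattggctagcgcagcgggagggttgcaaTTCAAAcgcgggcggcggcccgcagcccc
Bub1: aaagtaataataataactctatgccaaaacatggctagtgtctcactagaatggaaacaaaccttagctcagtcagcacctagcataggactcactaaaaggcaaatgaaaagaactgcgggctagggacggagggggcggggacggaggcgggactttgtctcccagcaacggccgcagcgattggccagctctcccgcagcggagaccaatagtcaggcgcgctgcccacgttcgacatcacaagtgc
Windows of 300 bases (250 before and 50 after the start) were searched for TTTGAA or its reverse complement, TTCAAA. The motif was found in 14 of the 19 list members with a RefSeq promoter (73.7%), against 18.1% of all 27025 promoters. It was present in 9 of the 10 matched members that were higher, in 2 of the 3 that were lower and in 3 of the 6 that were not called, so members with and without it are found in each class.

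Genes of S phase split, with 7 of 20 higher and 6 lower, and replication-dependent histone genes were mostly not called (7 of 48 higher and 5 lower, median log2 fold change -0.19). With the length trend removed 6 of the histone genes were higher and 12 lower (median -0.74), and without day 8 replicate 1 it was 8 and 3 (median 0.20). With library size as the only scaling, 2 of the S phase genes were higher and 6 lower. Among regulators of G1, 6 of 12 were higher and 4 lower. The inhibitors of cyclin-dependent kinases went both ways. Cdkn1a, which encodes the p53 target p21, rose 10.3-fold from 9.64, 14.2 and 13.3 CPM to 185, 83.3 and 114 CPM (3.36 ± 0.30, adjusted p = 1.27e-05), and Cdkn2a and Cdkn2b rose 4.78-fold and 6.34-fold. Cdkn1b, which encodes p27, fell 2.79-fold, and the G1 cyclin Ccnd1 3.53-fold, from 63.0, 109 and 103 CPM to 21.7, 24.7 and 31.1 CPM. The ages did not overlap in any of these genes.

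Glycolysis and hypoxia genes rose. Of 20 tested, 17 were higher and 1 lower at day 65 (median log2 fold change 1.85), with 17 higher in each of the 3 settings that removed the length trend, left out day 8 replicate 1, or kept it as the only day 8 library. Gapdh stood at 264, 326 and 303 CPM at day 8 and at 2571, 1458 and 1488 CPM at day 65 (2.63 ± 0.26, adjusted p = 1.73e-05). Pfkp, the platelet form of phosphofructokinase, rose 8.81-fold, from 20.9, 18.9 and 15.5 CPM to 189, 165 and 133 CPM (3.14 ± 0.18). Ldha, the lactate dehydrogenase subunit that favours lactate, rose 4.82-fold, from 209, 155 and 173 CPM to 948, 978 and 660 CPM. Ldhb, the other subunit, which is not on the list, had one of the largest losses in CPM and fell 5.76-fold, from 1356, 1014 and 1237 CPM to 184, 209 and 234 CPM. The muscle phosphofructokinase Pfkm was the list's lower member (-0.59 ± 0.18), and that call was lost with day 8 replicate 2 left out (adjusted p = 0.0598) or replicate 3 (0.0542). The hypoxia targets Vegfa, the vessel growth factor, and Slc2a1, the glucose carrier, rose 3.46-fold and 4.76-fold. Both were lowest, among the day 65 libraries, in replicate 3.

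Respiratory chain genes depended more on day 8 replicate 1. Of 78 nuclear-encoded subunits 50 were higher and none lower (median log2 fold change 1.00), against 67 higher without that library (1.41), 30 higher and 5 lower with it alone (0.48), and 43 higher and 3 lower with the length trend removed (0.50). Mitochondrially encoded mRNAs were higher in 9 of 13 (median 1.28), and in 4 of 13 with 2 lower when day 8 replicate 1 was the only day 8 library. They took 4.09%, 1.86% and 1.88% of counts at day 8 and 4.46%, 5.04% and 4.57% at day 65. mt-Co3, a subunit of cytochrome c oxidase, had the largest gain in CPM of all named genes, with a log2 fold change of 2.47 ± 0.60, and 3.59 without day 8 replicate 1. Cytosolic ribosomal protein genes were higher in 38 of 82 and lower in 2 (median 0.87), in 79 without day 8 replicate 1 (1.54), and in 19 with 9 lower when it was the only day 8 library (0.13). The counts for these 3 lists therefore move with that 1 library, whose transcripts were also the shortest of day 8. With the length trend removed, 31 ribosomal protein genes were higher and 2 lower (median 0.44). For mitochondrially encoded mRNAs it was 7 and 2 (median 0.965). Median effective lengths were 583 bases for the nuclear-encoded subunits, 710 for the mitochondrially encoded mRNAs and 552 for the ribosomal protein genes. These lie in the shortest bin, where 40.2% of all genes were higher and 16.9% lower (median 0.65).

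**Figure D4:**
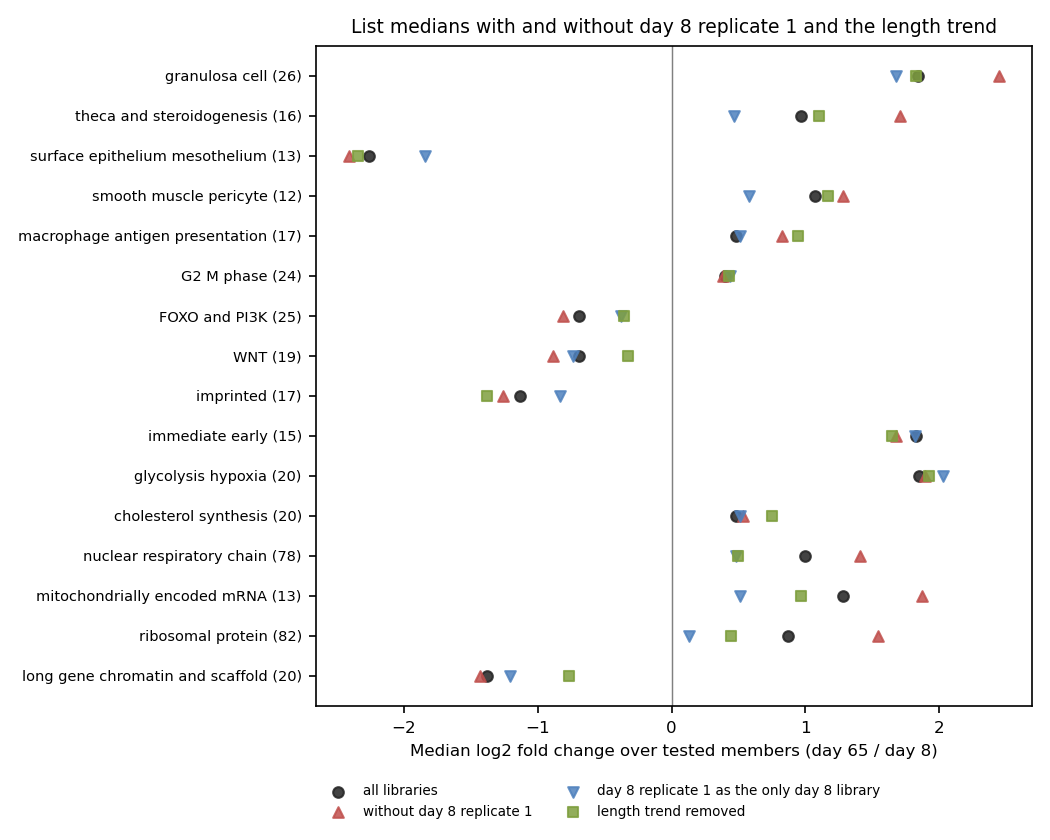
Median log2 fold change (day 65 over day 8, x axis) over the tested members of 16 gene lists (rows, number of members in brackets), with all libraries, without day 8 replicate 1, with it as the only day 8 library, and with the length trend removed. Ribosomal protein genes run from 0.13 to 1.54 across the settings, while glycolysis and hypoxia genes stay between 1.85 and 2.03.

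Cholesterol synthesis and uptake genes were higher in 11 of 20 and lower in 2 (median log2 fold change 0.48), and in 14 and 2 with the length trend removed. Mvk, mevalonate kinase, rose 4.87-fold and Msmo1, a sterol oxidase, 4.34-fold. Glutathione and antioxidant genes were higher in 10 of 21 and lower in 5.

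Genes of FOXO and PI3K signalling, the pathway of the transgene, were more often lower, with 15 of 25 lower and 3 higher (median log2 fold change -0.69). With the length trend removed, 11 were lower and 7 higher (median -0.36). Foxo1, the FOXO factor of granulosa cells, went against the list and rose 9.04-fold, from 114, 89.7 and 61.4 CPM to 926, 705 and 761 CPM (3.18 ± 0.25, adjusted p = 5.16e-06). Foxo3, the FOXO factor that holds primordial oocytes at rest, was lower (-0.66 ± 0.20, adjusted p = 0.0151), from 112, 173 and 147 CPM to 111, 69.3 and 93.8 CPM. That call was lost without day 8 replicate 2 (adjusted p = 0.0710) or 3 (0.0547) or day 65 replicate 2 (0.0553), and the value was 0.01 with the length trend removed. The AKT gene Akt1 was 1.49-fold higher, a call lost with library size as the only scaling (log2 fold change 0.28, adjusted p = 0.244) and with length and GC trends removed (0.23, adjusted p = 0.0613). Igf1r, the receptor for insulin-like growth factor, fell 2.91-fold. Endogenous and transgenic transcripts of Pik3ca share 1 row here only if the transgene matches the mouse gene, which the files do not show. That row was not called (-0.06 ± 0.17, adjusted p = 0.784), with 58.1, 92.8 and 76.9 CPM at day 8 and 75.6, 64.5 and 78.7 CPM at day 65. With the length trend removed Pik3ca was higher, at 0.40 (adjusted p = 0.0174).

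Immediate early genes, which respond to stimulation and to tissue handling, were higher in 13 of 15 and lower in none (median log2 fold change 1.83). Fos stood at 11.2, 7.04 and 12.7 CPM at day 8 and at 33.9, 115 and 45.5 CPM at day 65 (2.65 ± 0.43, and 1.96 without day 65 replicate 2), and Egr2 rose 11-fold. Egr1 was not called (-0.12 ± 0.24). Interferon-stimulated genes were higher in 7 of 13 and lower in 1. Bst2, which tethers virus particles, rose 12.9-fold, from 74.8, 40.8 and 56.7 CPM to 983, 563 and 683 CPM, while Ifit1 fell 2.61-fold (log2 fold change -1.38 ± 0.40, and -2.07 without day 65 replicate 3). TGF-beta family genes were higher in 7 of 30 and lower in 10, close to the shares of all genes, and 9 were higher and 9 lower with the length trend removed. Single members differed, with Bmpr1b, the receptor by which granulosa cells sense BMP ligands, up 4.15-fold and the ligand Tgfb2 down 8.48-fold (log2 fold change -3.08 ± 0.46, and -3.94 without day 65 replicate 3).

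Imprinted genes, which are expressed from 1 parental copy and often drive growth before and after birth, were lower in 10 of 17 and higher in 3 (median log2 fold change -1.13). Igf2, the fetal growth factor, went from 88.4, 111 and 122 CPM to 12.6, 3.73 and 8.05 CPM (-3.73 ± 0.41, adjusted p = 3.92e-05), and its neighbour H19, a noncoding RNA, fell 29.5-fold. Dlk1, a Notch ligand relative of immature cells, fell from 59.7, 53.0 and 77.6 CPM to 0.0829, 0.0654 and 0.46 CPM (-8.12 ± 0.40). Without day 65 replicate 3 its fitted value of -9.61 rested on 0.0829 and 0.0654 CPM, and is not a firm fold. Peg3, a zinc finger gene, fell 25.7-fold from 353, 746 and 625 CPM. Nnat, a small membrane protein of neuroendocrine cells, took the other direction and rose 12.0-fold, from 81.7, 46.7 and 56.8 CPM to 951, 634 and 643 CPM (3.59 ± 0.26). For Igf2, 64.5% of exon bases are shared with another annotated gene, which makes its counts uncertain, and shares of 23.4%, 22.8%, 18.8% and 18.1% apply to Ccnd1, Ube2c, Spp1 and Uchl1.

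Long genes for chromatin regulators and scaffold proteins, listed to follow the length trend, were lower in 18 of 20 and higher in none (median log2 fold change -1.38). With the trend removed 15 were lower and 2 higher (median -0.77), and with day 8 replicate 1 as the only day 8 library 17 were lower (-1.21). The 5 most abundant genes whose called direction turned when the trend was removed were Pbrm1, Rock2, Lpp, Med13 and Ankfy1. Pbrm1, a chromatin remodelling subunit, stood at 114, 139 and 120 CPM at day 8 and at 93.4, 95.8 and 90.2 CPM at day 65, with a log2 fold change of -0.41 ± 0.13 (adjusted p = 0.0181) and of 0.29 (adjusted p = 0.0218) with the trend removed. The call with all libraries was lost without day 8 replicate 2 (adjusted p = 0.0812) or 3 (0.0532) or day 65 replicate 3 (0.0647). Rock2, Lpp, Med13 and Ankfy1 likewise went from between -0.43 and -0.56 to between 0.28 and 0.41. Each of these 4 lost its call with all libraries when day 8 replicate 2 was left out, at adjusted p-values of 0.125, 0.159, 0.0955 and 0.117, and when some of the other day 8 and day 65 libraries were. Among short and abundant genes Ptma, for the small acidic protein prothymosin, was higher at 0.63 ± 0.19 and no longer called with the trend removed (0.26, adjusted p = 0.189).

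**Figure D5:**
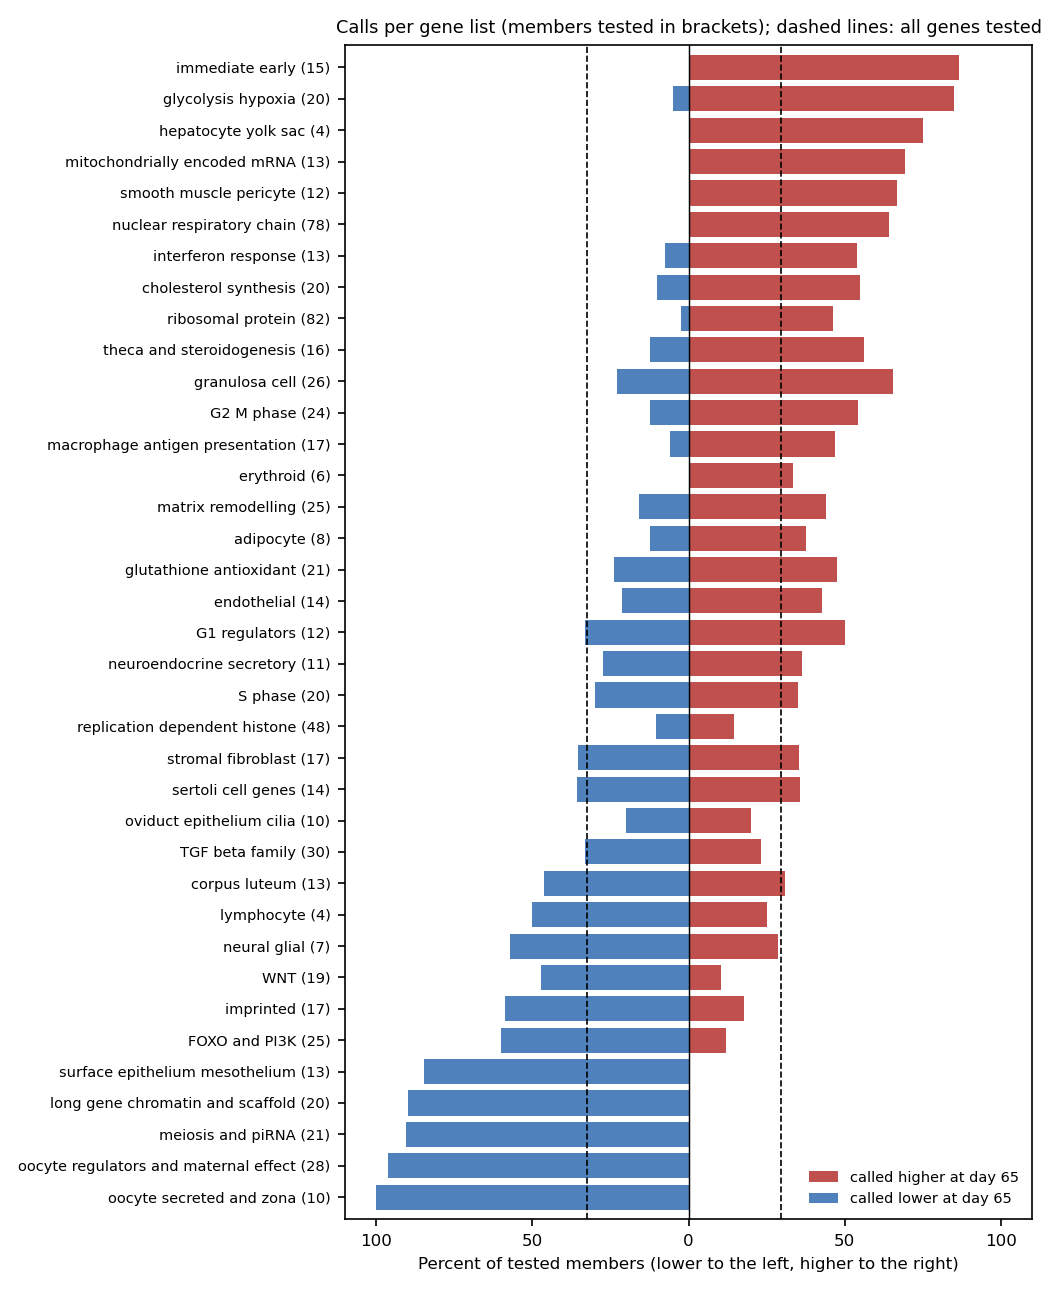
Percent of the tested members of each of the 37 gene lists called higher (red, to the right) or lower (blue, to the left) at day 65, with an adjusted p under 0.05 in edgeR's quasi-likelihood test and the number tested in brackets. Dashed lines give the shares of all genes tested, 29.7% higher and 32.6% lower. The oocyte, meiosis, long gene and surface epithelium lists lie at the lower end and the immediate early and glycolysis lists at the upper end.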

How the data were processed

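Ovary mRNA was sequenced from 3 libraries at each of days 8, 50 and 65, with column-purified total RNA and a NuGEN library kit, per the labels. The authors deposited 1 RSEM table per library with expected counts and TPM per gene. The genome build was GRCm38 (mm10), per the submitters' processing notes. The aligner, tool versions and strandedness were not in the sources used here.

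Deposited expected counts were rounded to whole numbers. After edgeR's filter on low counts and TMM scaling, 9 libraries were fitted together with edgeR 4.0.16 (R 4.3.3) by the quasi-likelihood test, with a term per age and no replicate block. P-values are two-sided, adjusted by Benjamini-Hochberg, and called under 0.05. SE is the log2 fold change over the root of its F statistic. CPM uses TMM-scaled library sizes. Deposited TPM served only for the mean transcript length. For single genes with no count in a group, folds are bounds against 3 counts over the group. That is 0.0619 CPM at day 8 and 0.0671 CPM at day 65. Such bounds and intervals cover counting error only. List medians, unless bounds are named, and the ranking of the largest changes use fitted values. The length trend of each library was removed with a spline on effective length entered as an offset. DESeq2 1.42.0 and limma 3.58.1 were alternatives. The scripts were tested on simulated data. Without a length trend, 6 of 17547 unchanged genes were called, and 5 of 50 changes of 1.5-fold and 46 of 50 of 4-fold were recovered. With a simulated log2 change of -0.4 per doubling of length at day 65, 2318 of the unchanged genes were called, and 8 when the trend was removed. The simulated slope was the same in every day 65 library, whereas the real libraries of an age differed in their length gap. In the real data a gap of 0.275 between the shortest and longest bin remained after removal, so the simulation does not show how complete the removal was there.

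Named genes were the largest called changes (at least 10 CPM, no overlap), the largest CPM differences, the most abundant calls lost or turned with length removed, and members of 37 lists. The members and lists were chosen with earlier results of these data known. Motifs were also searched for steroidogenesis (AAGGTCA, in 0 of 12 promoters against 4.66% of all) and cholesterol genes (the sterol element SRE, in 0 of 14 against 0.0851%), on both strands. Both exact motifs are so rare over all promoters that 0 among so few says little about these genes.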

Additional observations from a re-analysis of the deposited data

How the results depend on the processing

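The count of called genes was 11059 and stayed within 1.5 times of that under 13 other settings and with each of the 9 libraries left out in turn. Leaving out 1 library gave 9915 to 11824 called, with 4809 to 5877 higher and 5106 to 5947 lower. The other settings, apart from that with 1 day 8 library, gave 9624 (only the 6 libraries of the 2 ages) to 12679 (limma voom). In these, 3701 (library size as the only scaling) to 6340 (limma voom) were higher. Past a 2-fold change 7363 genes were called, of which 3216 were higher. The 6114 genes called in the same direction in all 22 of these settings are 55.3% of the calls. Of 138 genes named in the text, 109 kept their direction and their side of the threshold in every setting that gave a value. Same-numbered replicates did not deviate together (correlations of 0.0358, -0.0431 and 0.0519 for numbers 1, 2 and 3), so the numbers were not taken as pairs. With a replicate block 10732 genes were called, and 10370 with the length trend removed as well. The length gap of 1.44 was 1.95 without day 8 replicate 1, 0.772 with day 8 replicates 2 and 3 left out and 0.275 with the trend removed.

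In the order length removed, length and GC removed, replicate block with length removed, and length removed without day 8 replicate 1 (the last chosen after seeing the data), log2 fold changes that turned were as follows. Pik3ca gave 0.40, 0.69, 0.41 and 0.31. Pbrm1 gave 0.29, 0.50, 0.28 and 0.31. Rock2 gave 0.28, 0.54, 0.28 and 0.28. Lpp gave 0.41, 0.52, 0.39 and 0.45. Med13 gave 0.33, 0.56, 0.33 and 0.32. Ankfy1 gave 0.30, 0.40, 0.30 and 0.28. Foxo3 gave 0.0066 with length removed, and Cldn3 -1.22 without day 65 replicate 3. The cause was not tested. With 3 libraries an age, the exact permutation test cannot go below p = 0.1. Genes with few counts at both ages were not tested.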
